A study of Homo sapiens with 10 samples.

Results

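The genes described here are 10 members of the NF-kappaB system. They comprise the 5 transcription factor subunits RELA, NFKB1, REL, NFKB2 and RELB, and the inhibitor NFKBIA. The others are NFKBIZ, which encodes a nuclear IkappaB protein, the feedback enzymes TNFAIP3 and BIRC3, and the ligand TNF. All 10 were taken by gene name from a table of 58735 genes, in which each of the 10 names occurred 1 time. RNA was measured by poly(A) RNA sequencing in A253, a human cell line from a squamous cell carcinoma of the salivary gland. The 6 libraries fell into 3 groups of 2, and 4 further samples of the series, from the SOX2 experiment, were not analysed here. Control cells carried Cas9 and a guide RNA against dTomato, a fluorescent protein that is not a gene of these cells. Cl1 and Cl10 carried Cas9 and guides against DUSP1, a phosphatase that switches off MAP kinases, and were heterozygous for a deletion of its exon 2. Cells of all groups received these parts by lentivirus and went through selection with puromycin and blasticidin. Although the deletion is heterozygous, the paper reports no DUSP1 protein in Cl1 and Cl10. It proposes that inactivating indels in the remaining alleles could be the reason. Cl1 and Cl10 are each 1 clone, so a difference between a clone and the control cannot be told apart from a difference between single cells of the parent line. The control guide served as the baseline for both clones, and the comparison of Cl10 with Cl1 held no control library.

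Control replicates 1 and 2 held 66584988 and 53223425 counts, the Cl1 libraries 70986593 and 49840300, and the Cl10 libraries 57635596 and 47016495. DUSP1 itself was counted first, as a check of the labels. It had 743 and 634 normalized counts (raw counts scaled to a common library size) in the controls, 304 and 353 in Cl1, and 494 and 415 in Cl10. Every clone library lay below both controls, with a log2 fold change of -1.07 ± 0.150 (SE) in Cl1 and -0.59 ± 0.134 in Cl10. Both passed edgeR's quasi-likelihood test with Benjamini-Hochberg (BH) adjustment over all genes tested (adjusted p = 0.000292 and 0.0113), although in Cl10 the call was lost without Cl10 replicate 2 (log2 fold change -0.48, adjusted p = 0.0794). DUSP1 was higher in Cl10 than in Cl1 (0.48 ± 0.130, edgeR BH-adjusted p = 0.00817), but not without Cl10 replicate 1 (0.35, adjusted p = 0.111) or with the median of its 50 nearest tested genes subtracted (0.11, adjusted p = 0.539). All 8 epithelial markers were above 1 CPM in every library, with summed levels of 12520 and 12850 CPM in the controls, 14720 and 14640 in Cl1, and 13260 and 12880 in Cl10, led by KRT5 in the control and Cl1 libraries and by KRT14 in Cl10. The sums hide single markers that differed, among them the following. KRT8 stood at 1518 and 1730 CPM in the controls, 1639 and 1414 in Cl1, and 637 and 650 in Cl10, so it was low in Cl10, as was KRT18 (377 and 479, 425 and 364, 238 and 236 CPM in the same order). ITGA6 was lowest in the controls and highest in Cl10 (1072 and 869, 1428 and 1434, 1848 and 1952 CPM). CDH1 was lowest in the controls and highest in Cl1 (371 and 323, 641 and 599, 432 and 451 CPM). Of 8 leukocyte markers, only CD14 and ITGAM reached 1 CPM, with summed levels of 8.09 and 8.93 CPM in the controls, 16.9 and 13.7 in Cl1, and 14.1 and 12.8 in Cl10, higher in every clone library, while PTPRC stayed at or below 0.208 CPM and CD3D had no count in any library. Of 4 endothelial markers, only VWF reached 1 CPM, with summed levels of 4.65 and 3.12 CPM in the controls, 6.13 and 8.11 in Cl1, and 4.54 and 3.58 in Cl10, highest in Cl1. Of 6 fibroblast markers, COL1A1 and COL3A1 did so, with summed levels of 49.8 and 44.3 CPM in the controls, 45.8 and 48.7 in Cl1, and 29.8 and 31.5 in Cl10, where they were lowest, and LUM had no count in any library.

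NF-kappaB is a family of dimeric transcription factors that are held in the cytoplasm until a receptor such as that for TNF, interleukin-1 or a Toll-like receptor releases them. In the canonical branch, dimers of RELA or REL with the NFKB1 product p50 are freed when the inhibitor IkappaBalpha, encoded by NFKBIA, is degraded, and in the non-canonical branch the kinase NIK drives processing of the NFKB2 product p100 into p52, which pairs with RELB. Genes that limit the response, such as NFKBIA and TNFAIP3, are themselves NF-kappaB targets, as are BIRC3 and the subunit genes NFKB2 and RELB, and in squamous epithelium the pathway is known for its part in inflammation and survival.

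The promoters of these genes are shown because several members are known targets of the subunits. RefSeq promoter windows (GRCh38.p14) run from 250 bases before to 50 bases after a start site, and 9 of the 10 members matched, with 14 windows, since some genes have several start sites. RELB had no entry. The windows were searched on both strands for the NF-kappaB site named the kB consensus. It occurred in 9 of the 14 windows, belonging to 7 of the 9 members, and in 2075 of all 35116 promoter windows of the same length (5.91%). No match lay in the windows of RELA or TNF, which says only that these letters are not in those windows. The stretches upstream of TNFAIP3 (chr6:137867009-137867213, plus strand), BIRC3 (chr11:102317234-102317483, plus strand) and NFKBIA (chr14:35404750-35404999, minus strand) are given first. They were chosen because TNFAIP3 and BIRC3 fell in Cl1 while NFKBIA did not pass the test there. Whether the matches bear on these levels was not tested. Each stretch ends just before the start of its gene in GENCODE v44. The first and second stretch lie inside the opposite-strand RNA genes WAKMAR2 and ENSG00000288528. Capitals mark the matches, and all 5 in these stretches lie on the opposite strand of the gene.
TNFAIP3: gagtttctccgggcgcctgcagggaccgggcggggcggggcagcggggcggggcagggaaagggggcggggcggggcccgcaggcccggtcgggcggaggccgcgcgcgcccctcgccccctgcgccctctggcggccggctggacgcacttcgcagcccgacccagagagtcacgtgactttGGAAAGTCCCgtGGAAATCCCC
BIRC3: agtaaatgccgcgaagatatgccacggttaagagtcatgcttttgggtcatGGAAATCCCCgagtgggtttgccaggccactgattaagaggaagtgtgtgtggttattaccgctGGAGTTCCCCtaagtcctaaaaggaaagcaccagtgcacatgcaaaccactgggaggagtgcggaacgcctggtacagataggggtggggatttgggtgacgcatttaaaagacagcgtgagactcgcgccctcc
NFKBIA: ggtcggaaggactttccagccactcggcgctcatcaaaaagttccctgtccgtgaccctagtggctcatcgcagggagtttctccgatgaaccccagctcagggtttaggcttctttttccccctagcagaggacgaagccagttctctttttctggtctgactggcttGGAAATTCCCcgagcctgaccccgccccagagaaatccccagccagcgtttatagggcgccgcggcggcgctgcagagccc

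Counted to the start site of the RefSeq window, the matches begin 67 and 55 bases before it in TNFAIP3. In BIRC3 they begin 199 and 135 bases before it, and in NFKBIA 81 bases. For TNFAIP3 that site lies inside the gene, past the GENCODE start where the printed stretch ends. For the subunits, 30 bases around a match are shown for NFKB1 (chr4:102501300-102501329), REL (chr2:60881517-60881546) and NFKB2 at its start sites 2 and 3 (chr10:102394461-102394490 and chr10:102395674-102395703), all on the plus strand. The NFKB1 stretch ends just before the gene, the REL stretch and the first NFKB2 stretch lie in a first exon, and the other NFKB2 stretch covers the edge of the first exon of a further transcript. In REL and at NFKB2 start site 2 the matches of the opposite strands overlap, so the capitals there run over more than 1 match.
NFKB1: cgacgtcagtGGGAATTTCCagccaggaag
REL: cgtcagccgcGGGAAATTCCCctcccgcca
NFKB2 start 2: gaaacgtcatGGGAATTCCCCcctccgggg
NFKB2 start 3: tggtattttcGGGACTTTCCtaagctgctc

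All 10 members passed the filter on low counts in each comparison, but TNF did so in comparisons with Cl1 only through the libraries of the other group, where it is high, so it is described apart and left out of the counts and medians there. In Cl1, none of the other 9 members was higher than in the control and 4 were lower, namely NFKB2, RELB, TNFAIP3 and BIRC3. Of all 20153 genes tested in that comparison, 12.4% were higher and 12.8% lower at an adjusted p under 0.05. At an adjusted p under 0.05, the log2 fold change exceeded 1 in size for 3 of the 9 (NFKB2, RELB and TNFAIP3). The same held for 7.54% of all genes tested, a share that also holds genes with low counts. The median over the 9 members was -0.12, against -0.013 over all genes. With TNF counted, 5 of 10 would be lower, 4 past the fold limit, and the median -0.52. In Cl10, 4 of the 10 members were higher than in the control (RELA, NFKB1, NFKBIA and TNFAIP3) and 2 were lower (NFKB2 and RELB), where 20.6% of 19875 genes were higher and 21.8% lower. None of these passed a log2 fold change of 1 in size, whereas 13.4% of all genes did so at an adjusted p under 0.05. The median over the members was 0.35, against -0.011. Of these calls in Cl10 only that of NFKB2 was kept without either Cl10 library. Without Cl10 replicate 1, NFKB1 and TNFAIP3 kept their calls, BIRC3 gained one, and RELA, NFKBIA and RELB lost theirs, and without Cl10 replicate 2, 0 members were higher and 1 lower, while all genes higher went from 4103 to 2444 and 2376. Between the clones, 7 of the 9 members were higher in Cl10 than in Cl1, 1 (REL) was lower, and 3 passed the fold limit (RELB, TNFAIP3 and BIRC3). For all 19818 genes the shares were 24.9%, 24.1% and 10.8%, where the fold limit again includes an adjusted p under 0.05. The medians were 0.58 for the 9 members (0.60 with TNF, with 8 of 10 higher and 4 past the fold limit) and -0.0012 for all genes. RELB fell below the limit without Cl1 replicate 2 (0.90), without Cl10 replicate 2 (0.97) and with its neighbours' median subtracted (0.92). Under the other alternatives run for this comparison it lay above 1. Both clones were compared with the same control libraries, so an error in those 2 libraries enters both comparisons. Scaling by library size alone in Cl1 turned the 2489 higher and 2575 lower genes into 1942 and 3191, and between the clones it turned 4932 higher and 4774 lower into 5910 and 3939, so the shares over all genes depend on the scaling. The study says in general that its guide RNA experiments were done repeatedly with biological replicates, but nothing states that the 2 sequenced libraries of a group came from separate cultures, so the p-values measure the spread between these samples, which may be technical. In simulated data with far fewer changed genes than were called here, false calls made up more of the calls than the nominal level. That share depends on how many genes change, and only the main fits were simulated. How far it limits the adjusted p-values printed here is therefore not known.

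**Figure D1:**
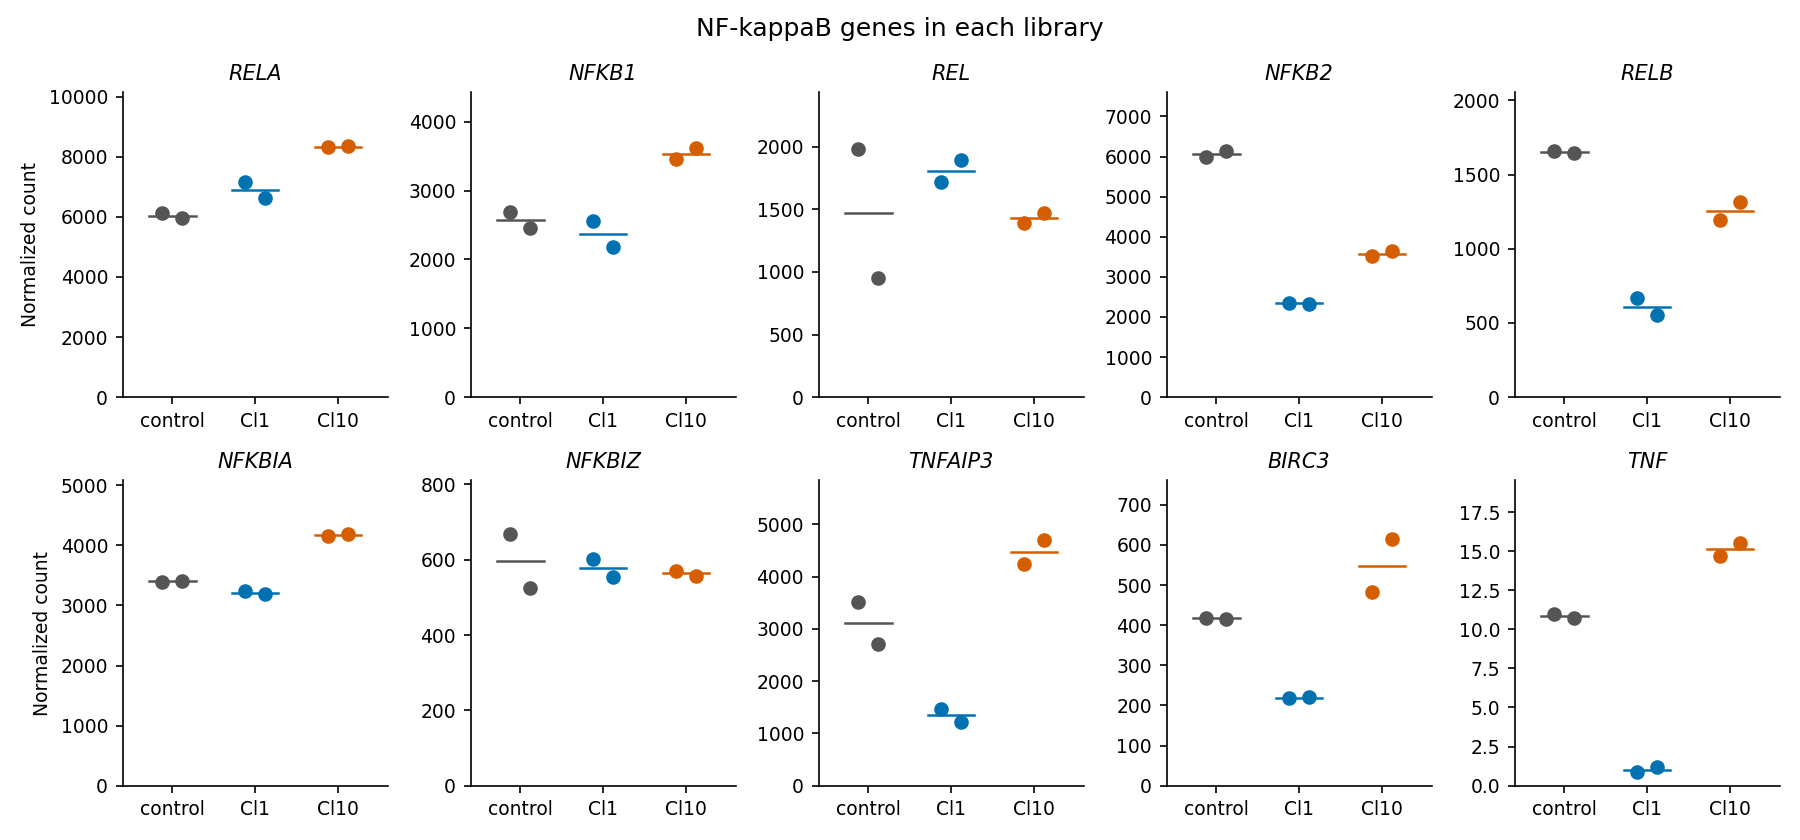
Normalized counts of each member in each library (points; vertical axes start at 0), with the mean of the 2 libraries as a line, for control, Cl1 and Cl10. Both Cl1 libraries lie lowest for NFKB2, RELB, NFKBIA, TNFAIP3, BIRC3 and TNF, by little for NFKBIA, whereas the control libraries of REL lie far apart.

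**Figure D2:**
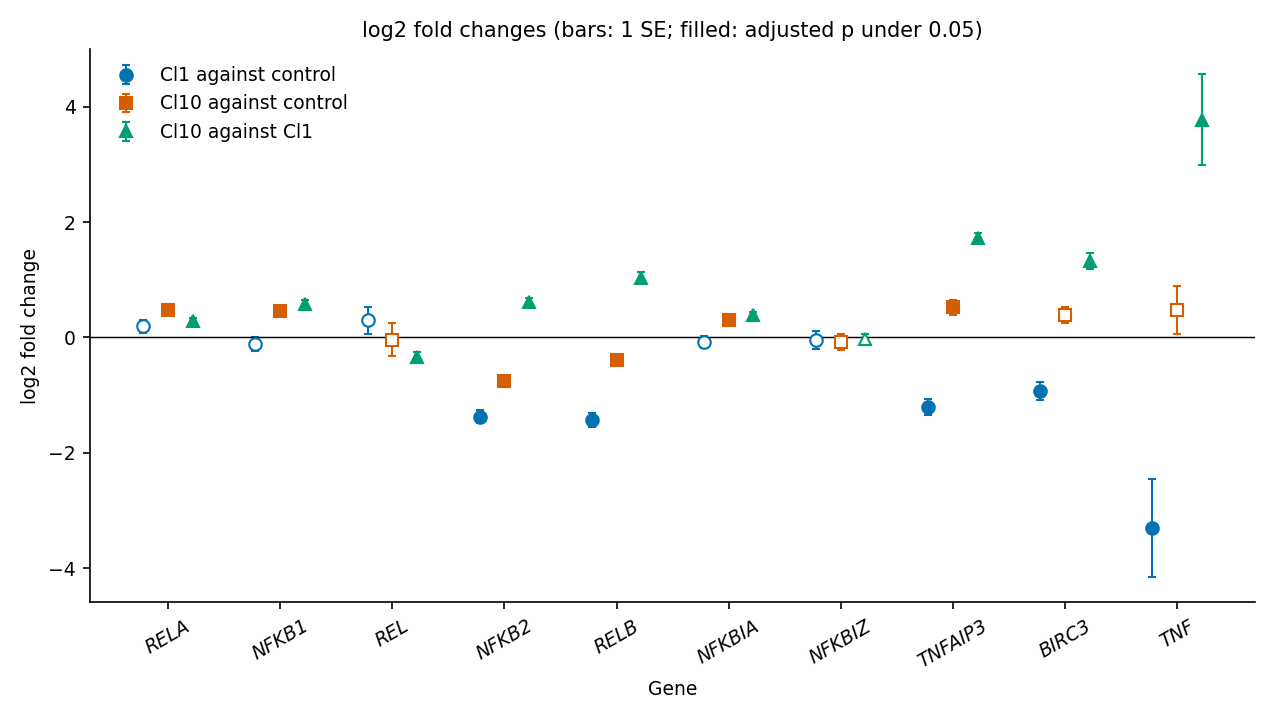
The log2 fold changes of the members in the 3 comparisons, with 1 SE from edgeR's quasi-likelihood fit as bars and filled symbols for an adjusted p under 0.05. For NFKB1, REL, NFKBIA, TNFAIP3, BIRC3 and TNF the values of Cl1 and Cl10 against the control lie on opposite sides of 0, and only TNFAIP3 passed the test in both, while TNF entered the comparisons with Cl1 only through the other group.

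Among the canonical subunits, RELA, the main activating subunit, had 6127 and 5955 normalized counts in the controls, 7143 and 6638 in Cl1, and 8333 and 8342 in Cl10. The Cl10 libraries were the highest, the controls the lowest, and the groups did not overlap. RELA rose 1.39-fold in Cl10 (log2 fold change 0.47 ± 0.0775 SE, edgeR quasi-likelihood test, BH-adjusted p = 0.00321). The value in Cl1 was 0.19 ± 0.112 (edgeR, BH-adjusted p = 0.236), and Cl10 lay above Cl1 by 0.28 ± 0.0600 (edgeR, BH-adjusted p = 0.00199). Among the 50 tested genes nearest to RELA on chromosome 11 the median was 0.41 in Cl10 and 0.18 in Cl1, and with that median subtracted RELA stood at 0.06 in Cl10 (edgeR, BH-adjusted p = 0.582) and at 0.06 for Cl10 against Cl1 (adjusted p = 0.456). Its rise was therefore close to that of its neighbours, whose part in it was not tested. RELA also lost its Cl10 call without Cl10 replicate 1 (0.48, edgeR BH-adjusted p = 0.0678) and without replicate 2 (0.47, adjusted p = 0.0764), where the lone library was assumed to vary like the controls. With the replicate number as a block in 1 fit over 6 libraries, the difference between the clones missed the threshold (0.28, edgeR BH-adjusted p = 0.0527).

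NFKB1, the precursor of p50, had 2685 and 2454 normalized counts in the controls, 2556 and 2174 in Cl1, and 3452 and 3621 in Cl10. Control and Cl1 libraries overlapped, and both Cl10 libraries stood above them. NFKB1 rose 1.38-fold in Cl10 (log2 fold change 0.47 ± 0.0855 SE, edgeR, BH-adjusted p = 0.00503) and was 0.58 ± 0.0753 above Cl1 (edgeR, BH-adjusted p = 4.16e-05), while in Cl1 it stood at -0.12 ± 0.117 (edgeR, BH-adjusted p = 0.506). Its neighbours on chromosome 4 had a median of 0.04 in Cl10. Without Cl10 replicate 2 the call against the control was lost (0.43, edgeR BH-adjusted p = 0.0804).

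REL, the subunit c-Rel that is best known from lymphocytes, had 1978 and 954 normalized counts in the controls, 1718 and 1893 in Cl1, and 1392 and 1471 in Cl10. Both clones lay between the control libraries, so the groups overlapped. The controls differed by 1.05 on the log2 scale, and only 0.24% of 11656 genes with a mean of at least 5 CPM were as far apart between these 2 libraries. REL did not pass the test in Cl1 (0.30 ± 0.234 SE, edgeR, BH-adjusted p = 0.387) or in Cl10 (-0.04 ± 0.289, adjusted p = 0.932). These values rest on which control is used. Without control replicate 1 they were 0.92 in Cl1 (edgeR, BH-adjusted p = 1.18e-11) and 0.58 in Cl10 (adjusted p = 1.58e-12), and without control replicate 2 they were -0.13 (adjusted p = 0.443) and -0.47 (adjusted p = 5.17e-12). With the replicate number as a block the Cl1 value was 0.38 (edgeR, BH-adjusted p = 0.0426), and with that block in 1 fit over 6 libraries it was 0.34 with no call (adjusted p = 0.285). In the direct comparison REL was lower in Cl10, at -0.33 ± 0.0743 relative to Cl1 (edgeR, BH-adjusted p = 0.00265), a call that was lost when all 6 libraries shared 1 estimate of the spread (-0.33, adjusted p = 0.308). REL shares 5702 exonic bases with an RNA gene on its strand, ENSG00000267520, which had no count.

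NFKB2, the precursor of p52 in the non-canonical branch, had 5985 and 6149 normalized counts in the controls, 2359 and 2313 in Cl1, and 3510 and 3645 in Cl10. The order was control, Cl10, Cl1 with no overlap, and each pair of libraries lay close together. NFKB2 fell in Cl1 to 0.386 of the control level (log2 fold change -1.37 ± 0.109 SE, edgeR, BH-adjusted p = 3.52e-06) and in Cl10 to 0.592 (-0.76 ± 0.0790, adjusted p = 0.000505). The difference between the clones was 0.62 ± 0.0594 (edgeR, BH-adjusted p = 3.44e-06). As the RNA is bulk, fewer cells with NFKB2 RNA and less RNA per cell cannot be told apart, here and for every gene below.

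RELB, the partner of p52, had 1659 and 1649 normalized counts in the controls, 668 and 552 in Cl1, and 1191 and 1313 in Cl10. The order was again control, Cl10, Cl1, without overlap. RELB fell in Cl1 to 0.370 of the control level (log2 fold change -1.43 ± 0.127 SE, edgeR, BH-adjusted p = 8.37e-06) and in Cl10 to 0.759 (-0.40 ± 0.0879, adjusted p = 0.0106), and it was 2.05-fold higher in Cl10 than in Cl1 (1.03 ± 0.102, adjusted p = 4.22e-06). The Cl10 call against the control was the less firm of these. It was lost without Cl10 replicate 1 (-0.32, edgeR BH-adjusted p = 0.201), without Cl10 replicate 2 (-0.47, adjusted p = 0.0545), and with the median of the 50 neighbouring genes on chromosome 19 subtracted (-0.25, adjusted p = 0.0560).

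Ratios of raw counts within a library do not depend on library scaling, although they keep the lengths of both genes. NFKB2 to RELA stood at 0.977 and 1.03 in the controls, 0.330 and 0.349 in Cl1, and 0.421 and 0.437 in Cl10. RELB to RELA stood at 0.271 and 0.277 in the controls, 0.0936 and 0.0832 in Cl1, and 0.143 and 0.157 in Cl10. Both ratios were highest in the controls and lowest in Cl1, with no overlap. RELB to NFKB2 was 0.277 and 0.268 in the controls and 0.283 and 0.239 in Cl1, which overlapped, and 0.339 and 0.360 in Cl10. NFKB2 to NFKB1 was 2.23 and 2.51 in the controls, against 0.923 and 1.06 in Cl1 and 1.02 and 1.01 in Cl10. By this ratio the Cl10 libraries lay between the Cl1 libraries, so both clones had about as many NFKB2 as NFKB1 counts.

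**Figure D3:**
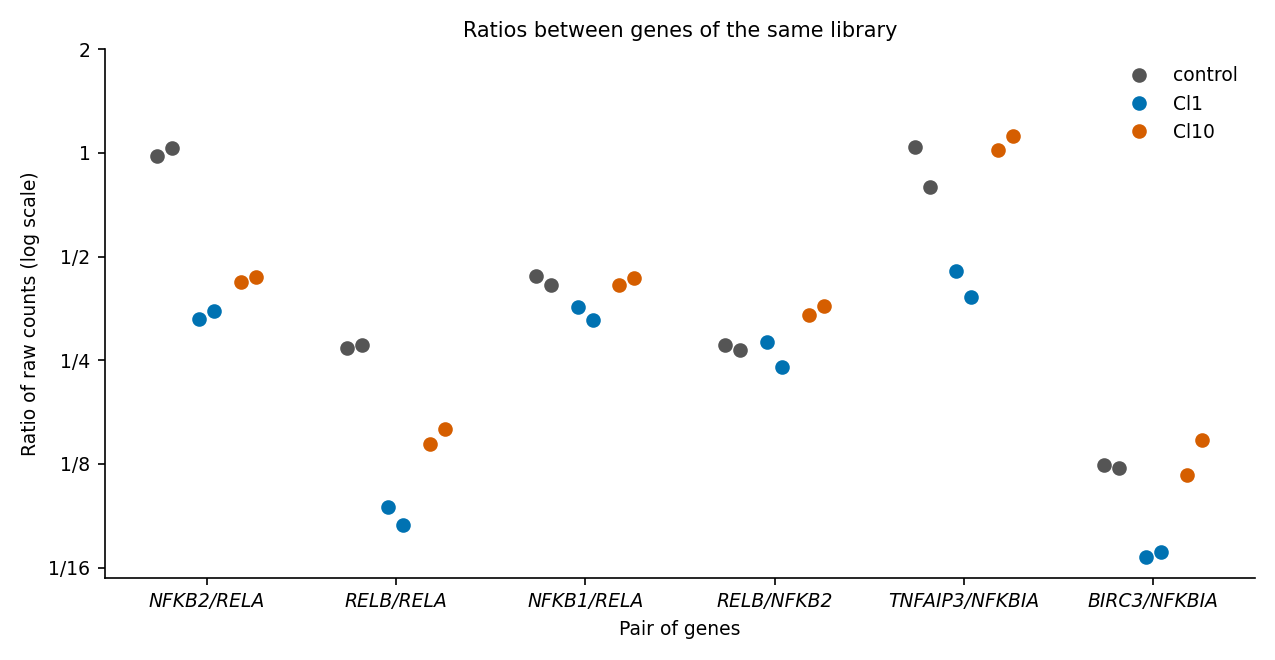
Ratios of raw counts between members of the same library (points, 2 libraries a group; vertical axis on a log scale), for control, Cl1 and Cl10. NFKB2/RELA and RELB/RELA are lower in both clones than in the controls, whereas TNFAIP3/NFKBIA and BIRC3/NFKBIA are lower in Cl1 alone.

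NFKBIA, the inhibitor that is resynthesized after each NF-kappaB pulse, had 3388 and 3411 normalized counts in the controls, 3237 and 3187 in Cl1, and 4163 and 4184 in Cl10. Cl10 was highest and the groups did not overlap, although Cl1 lay close below the controls. NFKBIA rose 1.23-fold in Cl10 (log2 fold change 0.30 ± 0.0758 SE, edgeR, BH-adjusted p = 0.0176) and was 0.38 ± 0.0563 above Cl1 (edgeR, BH-adjusted p = 0.000120), while the value in Cl1 was -0.08 ± 0.105 (edgeR, BH-adjusted p = 0.625). The rise in Cl10 lost its call without Cl10 replicate 1 (0.31, edgeR BH-adjusted p = 0.236) or replicate 2 (0.30, adjusted p = 0.261).

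NFKBIZ, a nuclear IkappaB protein that acts on a subset of targets such as IL6, had 668 and 525 normalized counts in the controls, 602 and 554 in Cl1, and 571 and 558 in Cl10. All clone libraries lay between the controls. NFKBIZ passed the test in no comparison, with log2 fold changes of -0.04 ± 0.148 in Cl1, -0.08 ± 0.136 in Cl10 and -0.03 ± 0.0988 between the clones (edgeR, BH-adjusted p = 0.858, 0.673 and 0.809). Without control replicate 2 the Cl10 value was -0.24 (edgeR, BH-adjusted p = 0.0373), and without control replicate 1 it was 0.10 (adjusted p = 0.455). NFKBIZ shares 194 exonic bases with NXPE3 on the same strand, which had 5404 counts over the 6 libraries against 3509 for NFKBIZ, and how shared reads were assigned is not given in the sources used here.

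Both feedback enzymes were higher in Cl10 than in Cl1, as were most other members. TNFAIP3 encodes A20, a ubiquitin-editing enzyme that ends NF-kappaB signalling, and its upstream stretch with 2 nearby matches is printed above. It had 3520 and 2720 normalized counts in the controls, 1467 and 1219 in Cl1, and 4235 and 4692 in Cl10. Cl1 was lowest and Cl10 highest, and no groups overlapped. TNFAIP3 fell in Cl1 to 0.431 of the control level (log2 fold change -1.21 ± 0.141 SE, edgeR, BH-adjusted p = 7.97e-05) and rose 1.43-fold in Cl10 (0.52 ± 0.132, adjusted p = 0.0179). The clones differed 3.32-fold (1.73 ± 0.0855, edgeR, BH-adjusted p = 1.83e-08). The rise in Cl10 was 0.44 without Cl10 replicate 2 (edgeR, BH-adjusted p = 0.0873) and 0.34 without control replicate 2 (adjusted p = 1.15e-10), whereas the fall in Cl1 passed the test in every fit that left out a library.

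BIRC3, the ubiquitin ligase cIAP2, which acts downstream of the TNF receptor and also keeps NIK low, had 419 and 415 normalized counts in the controls, 217 and 221 in Cl1, and 483 and 614 in Cl10. The order was the same as for TNFAIP3, with no overlap. BIRC3 fell in Cl1 to 0.526 of the control level (log2 fold change -0.93 ± 0.150 SE, edgeR, BH-adjusted p = 0.000840) and was 2.50-fold higher in Cl10 than in Cl1 (1.32 ± 0.138, adjusted p = 6.82e-06). In Cl10 against the control the value of 0.40 ± 0.141 missed the threshold (edgeR, BH-adjusted p = 0.0576). The Cl10 libraries of BIRC3 lay 0.35 apart on the log2 scale, as far as 0.789% of genes. BIRC3 passed in Cl10 with no filter on low counts (0.38, edgeR BH-adjusted p = 0.0231), in 1 fit over all 6 libraries (0.39, adjusted p = 0.0376) and with the replicate number as a block (0.39, adjusted p = 0.0278). It also passed without control replicate 1 (0.39, edgeR BH-adjusted p = 0.00274), control replicate 2 (0.38, adjusted p = 0.00319) or Cl10 replicate 1 (0.57, adjusted p = 0.0263). Without Cl10 replicate 2 the value was 0.21 (edgeR, BH-adjusted p = 0.473), so it rests largely on that library. BIRC3 also missed the threshold with the median of its neighbours subtracted (0.33, edgeR BH-adjusted p = 0.105), in DESeq2 (0.40, adjusted p = 0.0867) and with the block in 1 fit over 6 libraries (0.38, adjusted p = 0.0507).

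Set against NFKBIA in the same library, TNFAIP3 stood at 1.04 and 0.798 in the controls, 0.453 and 0.382 in Cl1, and 1.02 and 1.12 in Cl10. BIRC3 to NFKBIA stood at 0.124 and 0.122 in the controls, 0.0672 and 0.0694 in Cl1, and 0.116 and 0.147 in Cl10. Both ratios were low in Cl1 alone, and in Cl10 they overlapped the controls. TNFAIP3 shares 95 exonic bases with WAKMAR2 on the opposite strand (1036 counts, against 17709 for TNFAIP3), and RELA shares 103 with RELA-DT (1682 against 42334). BIRC3 shares 126 bases with ENSG00000288528. The sample labels name a stranded library kit (Illumina Stranded mRNA Prep) and the paper another (Illumina TruSeq RNA), and no source used here gives the strand setting of the counting, so reads of such partners cannot be told apart.

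TNF, the ligand that starts the canonical branch, was near the limit of detection. Raw counts were 13 and 10 in the controls, 1 and 1 in Cl1, and 15 and 13 in Cl10. Cl1 was low in both libraries, and Cl10 lay near the controls. Scaled for library size, the ratio of Cl1 to the control was 0.0907 (95% exact binomial interval 0.0104 to 0.367), that of Cl10 to the control 1.39 (0.771 to 2.52) and that of Cl10 to Cl1 15.3 (3.86 to 133). These intervals cover counting error only. Cl10 against the control was the only comparison in which TNF had at least 10 counts in every library, and it gave no call (0.47 ± 0.415 SE, edgeR, BH-adjusted p = 0.387). The fitted values against Cl1 are descriptions and not calls, since TNF reached those tests only through the group in which it is high. They were -3.31 ± 0.846 for Cl1 against the control (edgeR, BH-adjusted p = 0.0104) and 3.77 ± 0.790 for Cl10 against Cl1 (adjusted p = 0.00121). The value of Cl1 against the control missed the threshold without Cl1 replicate 1 (-3.08, edgeR BH-adjusted p = 0.139) and without Cl1 replicate 2 (-3.50, adjusted p = 0.0701), was not tested without control replicate 1, and got no adjusted p from DESeq2.

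LTB, which encodes lymphotoxin-beta, a ligand of the non-canonical branch, lies 2188 bases from TNF on chromosome 6 (LTB at chr6:31580525-31582522 on the minus strand, TNF at chr6:31575565-31578336 on the plus strand, hg38). LTB had 43.9 and 61.2 normalized counts in the controls, 15.4 and 14.0 in Cl1, and 223 and 250 in Cl10. The direction against the control was opposite in the 2 clones, and no groups overlapped. LTB fell in Cl1 (log2 fold change -1.81 ± 0.368 SE, edgeR, BH-adjusted p = 0.00349), rose in Cl10 (2.18 ± 0.213, adjusted p = 0.000382) and differed between the clones by 3.99 ± 0.243 (adjusted p = 9.31e-08). LTA, which lies 1240 bases from TNF on its other side, had at most 8.45 normalized counts in a library and was not tested.

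Per kilobase of transcript, RELA and NFKBIA had the highest levels in the controls, with 41.8 ± 0.843 and 38.0 ± 0.179 CPM per kb (SD, n = 2), followed by NFKB2 with 35.0 ± 0.669. RELB (12.8 ± 0.0545), TNFAIP3 (11.6 ± 2.11) and NFKB1 (11.5 and 10.5 CPM per kb in the libraries) came next, and these levels lay within the spread of TNFAIP3. NFKBIZ (2.65 ± 0.449) and REL (2.30 ± 1.14 CPM per kb) could not be ordered beyond their spread, and BIRC3 (1.06 ± 0.00627) and TNF (0.113 ± 0.00180) were lowest. In Cl1 the level of NFKB2 was 13.5 ± 0.186 CPM per kb, above NFKB1 at 10.2 ± 1.16, and that of RELB was 4.71 ± 0.634, below NFKB1. In Cl10 the order among TNFAIP3 (16.7 ± 1.21), NFKB1 (15.2 ± 0.513) and RELB (9.65 ± 0.665 CPM per kb) differed from the controls in that RELB was the lowest of them in both Cl10 libraries.

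Further genes of the pathway were taken from 6 lists, whose counts and medians cover genes with at least 10 counts in every library compared. Of 15 inhibitors and feedback regulators, 1 rose and 4 fell in Cl1, 1 rose and 2 fell in Cl10, and 6 were higher and 5 lower in Cl10 than in Cl1 (medians -0.10, -0.04 and 0.11). The shares of all tested genes were 12.4% higher and 12.8% lower in Cl1, 20.6% and 21.8% in Cl10, and 24.9% and 24.1% between the clones. NFKBIE, which encodes IkappaBepsilon, had 557 and 670 normalized counts in the controls, 327 and 267 in Cl1, and 494 and 551 in Cl10. Cl1 was low for NFKBIE, and both Cl10 libraries lay just below the controls. NFKBIE fell in Cl1 (log2 fold change -1.04 ± 0.160 SE, edgeR, BH-adjusted p = 0.000602), as did the deubiquitinase gene CYLD (-0.55 ± 0.119, adjusted p = 0.00528), whereas in Cl10 the values of NFKBIE and CYLD were -0.22 and 0.16 with no call. PDLIM2, an E3 ligase for nuclear RELA, rose in Cl1 (0.57 ± 0.110, edgeR, BH-adjusted p = 0.00267) and stood at 0.16 in Cl10. TNIP2, an A20-binding inhibitor, fell in both (-0.36 and -1.03), but with the median of its neighbours subtracted the Cl10 value was -0.21 (edgeR, BH-adjusted p = 0.0961). TAX1BP1, an A20 adaptor, fell in Cl10 (-0.59), and with its neighbours' median subtracted the value turned to 0.28 (edgeR, BH-adjusted p = 0.0272). In Cl1 TAX1BP1 stood at 0.22 with no call, and at 0.41 with a call once that median was subtracted (edgeR, BH-adjusted p = 0.0253). Calls in Cl1 were lost for TNIP2 without Cl1 replicate 1 (-0.40) or 2 (-0.31), and for CYLD (-0.51) and PDLIM2 (0.49) without Cl1 replicate 1. With the replicate number as a block TNIP2 stood at -0.36 in Cl1 with no call, and it kept its call with that block in 1 fit over 6 libraries (-0.36). In Cl10, NFKBIE (-0.37) and CYLD (0.28) passed without control replicate 1, and PDLIM2 (0.19) without control replicate 2.

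Of 37 kinases and adaptors, 5 rose and 5 fell in Cl1, 13 rose and 10 fell in Cl10, and 19 were higher and 9 lower in Cl10 than in Cl1 (medians 0.02, 0.13 and 0.20). Over all genes 12.4% rose and 12.8% fell in Cl1, 20.6% and 21.8% in Cl10, and 24.9% and 24.1% differed between the clones in these directions. MAP3K14, which encodes NIK, the kinase of the non-canonical branch, had 1164 and 1095 normalized counts in the controls, 1951 and 1712 in Cl1, and 2115 and 2283 in Cl10. Both clones lay above the controls for MAP3K14 while NFKB2 and RELB lay below. MAP3K14 rose in Cl1 (log2 fold change 0.70 ± 0.116 SE, edgeR, BH-adjusted p = 0.000959) and in Cl10 (0.97 ± 0.0869, adjusted p = 0.000289). MALT1, a paracaspase that cleaves A20, rose in both (0.54 and 1.33), as did IKBKE, an IkappaB kinase relative (0.52 and 1.08). CARD10, a scaffold of MALT1 signalling in epithelial cells, fell in both (-0.52 and -1.25), and CARD9, its counterpart in myeloid cells, rose in Cl10 (1.10) with a value of 0.19 and no call in Cl1. In Cl1 the calls of IKBKE (0.38 without Cl1 replicate 1, 0.22 with its neighbours' median subtracted) and of CARD10 (-0.54 and -0.50 without Cl1 replicate 1 and 2) were lost. With the neighbours' median subtracted, CARD10 stood at -0.53 in Cl10 and kept its call.

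Of 19 receptors, 1 rose and 3 fell in Cl1 (12.4% and 12.8% of all genes), and 4 were higher and 8 lower in Cl10 than in Cl1 (24.9% and 24.1%), while of 22 in Cl10 against the control 3 rose and 9 fell (20.6% and 21.8%). The medians were 0.06 in Cl1, -0.24 in Cl10 and -0.02 between the clones. TNFRSF9, IL1RL1 and TLR1 were tested against Cl1 with under 10 counts in a library and are left out there. With them, 1 of 22 rose and 5 fell in Cl1 and 6 were higher and 8 lower between the clones, with medians of -0.02 and 0.05. IL1R1, the signalling receptor of interleukin-1, had 2015 and 1784 normalized counts in the controls, 2564 and 3400 in Cl1, and 4103 and 4205 in Cl10. For IL1R1 the controls were lowest and Cl10 highest, with no overlap. IL1R1 rose in Cl1 (log2 fold change 0.65 ± 0.137 SE, edgeR, BH-adjusted p = 0.00447) and in Cl10 (1.13 ± 0.0904, adjusted p = 0.000196). TNFRSF21, the death receptor DR6, rose in Cl10 (1.02) and stood at 0.30 in Cl1 with no call. EDAR, the ectodysplasin receptor of skin appendages and glands, fell in both (-1.24 and -1.07), as did IL18R1 (-0.94 and -0.45) and TLR6 (-0.85 and -0.78). Leaving out 1 library ended the Cl1 calls of IL1R1 (0.44 without Cl1 replicate 2) and TLR6 (-0.75 without Cl1 replicate 1). It also ended the Cl10 calls of TLR6 (-0.54 without Cl10 replicate 1) and IL18R1 (-0.47 and -0.42 without Cl10 replicate 1 and 2), and IL18R1 missed the threshold in DESeq2 (-0.44). EDAR stood at -0.69 in Cl10 without control replicate 1, and TNFRSF21 passed in Cl1 without control replicate 1 (0.34), in 1 fit over 6 libraries without and with the replicate block (0.30 in both) and with its neighbours' median subtracted (0.44).

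Of the 16 other ligands of the TNF superfamily, 7 had at least 10 counts in every library. In Cl1, 1 rose and 4 fell (12.4% and 12.8% of all genes), and in Cl10, 3 rose and 4 fell (20.6% and 21.8%), while between the clones 4 were higher and 2 lower in Cl10 (24.9% and 24.1%). Their medians were -0.38, -0.50 and 0.47, against -0.013, -0.011 and -0.0012 over all genes. With TNFSF4, which had under 10 counts in a library and no call, the medians against the control were -0.66 and -0.51. Besides LTB, TNFSF15 had 143 and 87.0 normalized counts in the controls, 184 and 159 in Cl1, and 419 and 491 in Cl10. It encodes TL1A, the ligand of death receptor 3. TNFSF15 rose in Cl10 (log2 fold change 1.97 ± 0.228 SE, edgeR, BH-adjusted p = 0.000767) and stood at 0.57 ± 0.237 in Cl1 (adjusted p = 0.0974). TNFSF13, which encodes APRIL, rose in both clones (0.59 and 1.11). TNFSF9, the ligand of 4-1BB, fell in both (-0.38 and -0.96), and so did EDA, the ligand of EDAR (-1.21 and -0.74). In Cl1 the call of TNFSF9 was lost without control replicate 2 (-0.23), Cl1 replicate 1 (-0.30) or Cl1 replicate 2 (-0.45) and with its neighbours' median subtracted (-0.35), and that of TNFSF13 without Cl1 replicate 1 (0.48). TNFSF15 passed in Cl1 without control replicate 1 (0.98), with no filter on low counts (0.55) and with the replicate number as a block (0.60), but not with that block in 1 fit over 6 libraries (0.58).

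Among 18 inflammatory target genes, 4 rose and 5 fell in Cl1 (12.4% and 12.8% of all genes), and 4 rose and 10 fell in Cl10 (20.6% and 21.8%), and of 20 compared between the clones 7 were higher and 9 lower in Cl10 (24.9% and 24.1%), with medians of -0.09, -0.36 and -0.31. Over every gene tested the counts were 5 higher and 5 lower of 20 in Cl1, 9 and 10 of 24 in Cl10, and 11 and 9 of 24 between the clones, with medians of -0.03, -0.0024 and 0.32, so the direction of the median between the clones rests on which genes are counted. CXCL10, CCL2, CSF2 and SAA1 are left out because they passed the filter only through Cl10, where they are high, and NOS2 and LCN2 are left out against the control because a library had under 10 counts. IL1B, an interleukin-1 cytokine, had 1102 and 1056 normalized counts in the controls, 64.8 and 72.5 in Cl1, and 428 and 363 in Cl10. IL1A, its neighbour and relative, had 538 and 453 in the controls, 52.9 and 42.1 in Cl1, and 212 and 194 in Cl10. For both genes the controls were highest and Cl1 lowest, with no overlap. IL1B fell in Cl1 (log2 fold change -3.98 ± 0.160 SE, edgeR, BH-adjusted p = 2.39e-08) and in Cl10 (-1.44 ± 0.113, adjusted p = 0.000186), and was higher in Cl10 than in Cl1 (2.54 ± 0.167, adjusted p = 1.76e-07). IL1A fell in Cl1 (-3.36 ± 0.199 SE, edgeR, BH-adjusted p = 2.89e-07) and in Cl10 (-1.28 ± 0.141, adjusted p = 0.000612). PTGS2, which encodes cyclooxygenase-2, had 887 and 521 normalized counts in the controls, 88.7 and 69.0 in Cl1, and 27.5 and 45.4 in Cl10. PTGS2 was low in both clones and fell in Cl1 (-3.14 ± 0.250 SE, edgeR, BH-adjusted p = 3.52e-06) and in Cl10 (-4.29 ± 0.344, adjusted p = 0.000196). The adhesion molecule gene ICAM1 had 35.5 and 47.2 normalized counts in the controls, 82.7 and 56.1 in Cl1, and 172 and 182 in Cl10, and rose in Cl10 (2.11 ± 0.217 SE, edgeR, BH-adjusted p = 0.000471). The chemokine gene CCL5 fell in Cl10 (-1.51 ± 0.109 SE, edgeR, BH-adjusted p = 0.000140) and stood at -0.12 in Cl1 with no call. In Cl1, ICAM1 stood at 0.77 with no call, and it passed without control replicate 2 (0.99) or Cl1 replicate 2 (1.01), with no filter on low counts (0.76), in 1 fit over 6 libraries (0.78) and with its neighbours' median subtracted (0.98).

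Of 12 survival and signalling target genes, 3 rose and 2 fell in Cl1, 4 rose and 3 fell in Cl10, and 6 were higher and 2 lower in Cl10 than in Cl1 (medians -0.05, 0.16 and 0.12). For all genes the shares were 12.4% and 12.8%, 20.6% and 21.8%, and 24.9% and 24.1%. CCND1, which encodes cyclin D1, had 25560 and 24460 normalized counts in the controls, 45380 and 41730 in Cl1, and 39920 and 41280 in Cl10. It was high in both clones, which differed from the controls without overlap and lay close to each other. CCND1 rose in Cl1 (log2 fold change 0.80 ± 0.130 SE, edgeR, BH-adjusted p = 0.000853) and in Cl10 (0.70 ± 0.0851, adjusted p = 0.000902, or 0.32 with its neighbours' median subtracted). IER3, an early response gene linked to survival, fell in both clones (-0.61 and -0.75). TNFAIP2, a gene that TNF induces, rose in Cl1 (0.75) and fell in Cl10 (-0.31), a difference between the clones of -1.05 ± 0.0601 (edgeR, BH-adjusted p = 5.78e-08). EFNA1, an ephrin ligand, rose in Cl1 (0.64, or 0.42 with its neighbours' median subtracted) and stood at 0.07 in Cl10, and DRAM1, a lysosomal protein gene, rose in Cl10 (1.21) and stood at -0.02 in Cl1. The call of IER3 in Cl1 was lost without Cl1 replicate 2 (-0.45), that of TNFAIP2 in Cl10 without Cl10 replicate 1 (-0.27) or 2 (-0.34), and EFNA1 passed in Cl10 without control replicate 2 (0.17).

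**Figure D4:**
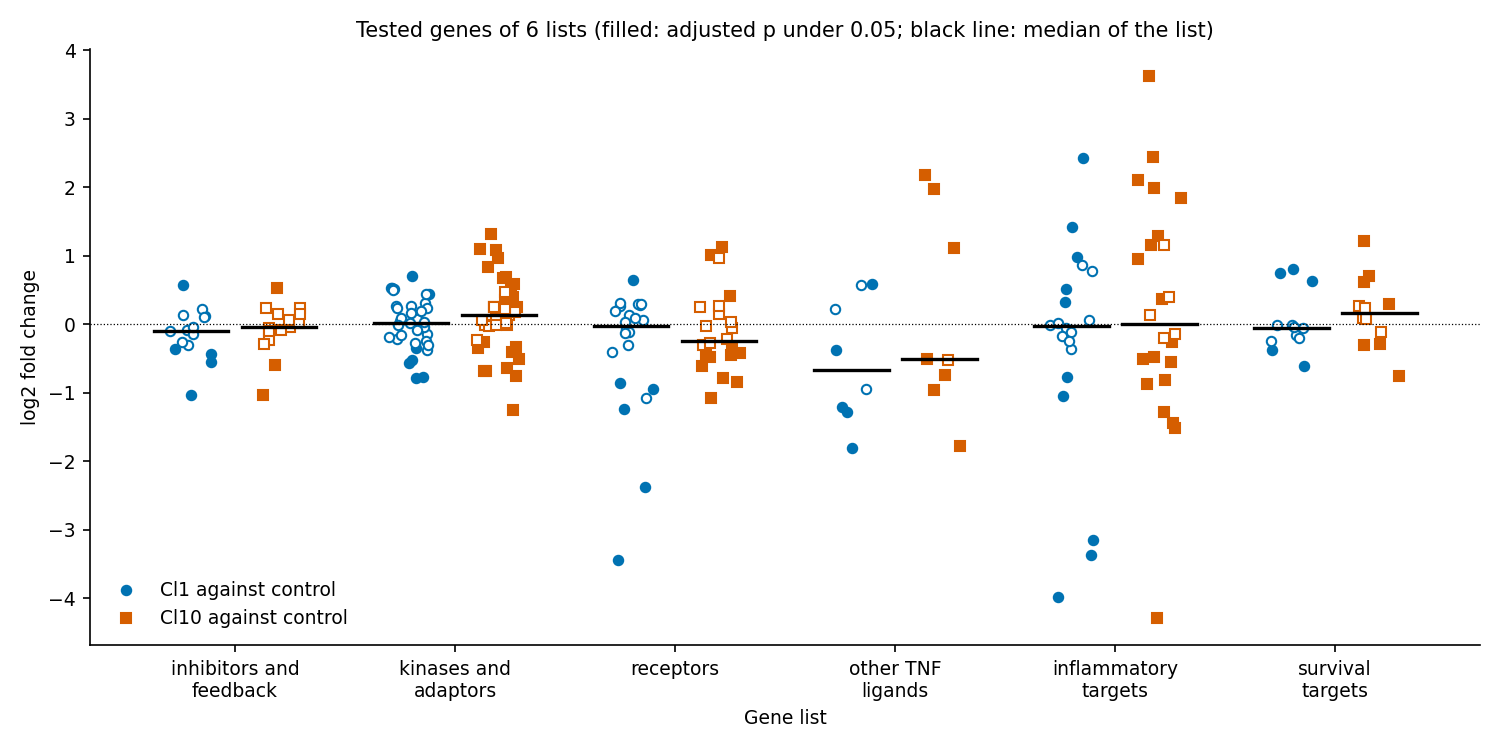
The log2 fold changes of the tested genes of the 6 lists in Cl1 (circles) and Cl10 (squares) against the same controls, with filled symbols for an adjusted p under 0.05 in edgeR's quasi-likelihood test and a black line at the list's median. PTGS2 in Cl10 lies lowest at -4.29, and the highest symbol, CCL2 in Cl10, is a gene that passed the filter only through Cl10.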

How the data were processed

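The deposited values are raw counts per gene, which the authors made from poly(A)-selected, paired-end libraries with HISAT2 on hg38 and HTSeq. The submitters' processing notes also name StringTie and DESeq. Versions, annotation and strand setting are not given in the sources used here. Counts were read by gene identifier, and 58207 of 58735 identifiers, with 99.9% of the counts, were matched to GENCODE v44, the source of coordinates and of canonical transcript lengths. Each comparison was fitted on its own 4 libraries in edgeR 4.0.16 (R 4.3.3) with filterByExpr, TMM, estimateDisp, glmQLFit and glmQLFTest. P-values were adjusted by Benjamini-Hochberg over the genes tested in that comparison. The threshold for a call was an adjusted p of 0.05. The fold limit was a log2 fold change beyond 1 in either direction together with an adjusted p under 0.05. Standard errors are the unshrunk log2 fold change, without its sign, over the square root of F. CPM are counts scaled to a fixed library size as in edgeR. Normalized counts and CPM use TMM factors over all 6 libraries. The main fits were tested on simulated data with known changes, in far fewer genes than were called here. Directions and sizes were recovered there, and misses lay mostly in genes under 1 CPM. False calls made up a larger share of the calls than the nominal level. Alternatives covered size factors, library size, DESeq2 1.42.0, filters (none, or at least 10 counts in every library), 1 fit over 6 libraries, replicate blocks, the median of the 50 nearest tested genes as an offset, and each library left out. Besides all members and DUSP1, the text names, from each list, the 5 genes with the largest absolute log2 fold change in either clone among those at an adjusted p under 0.05 there and a mean of at least 1 CPM, and LTA and the genes left out of counts were added after their values were seen. The rule of at least 10 counts in every library for the counts and medians over members and lists was also added after the results were seen. The members and lists were chosen with earlier results of these data known. Promoter sequences come from RefSeq (GRCh38.p14). The totals of 47016495 to 70986593 counts a library leave TNF limited by counting error.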

Additional observations from a re-analysis of the deposited data

Results flagged for a closer look

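The members below drew attention because the test between the clones found their levels to differ. Both clones carry a heterozygous deletion in DUSP1, and the paper reports no DUSP1 protein in either. By edgeR's quasi-likelihood test with Benjamini-Hochberg adjustment, the log2 fold change of Cl10 against Cl1 was 1.73 for TNFAIP3 (adjusted p = 1.83e-08), 1.32 for BIRC3 (adjusted p = 6.82e-06) and 1.03 for RELB (adjusted p = 4.22e-06). Smaller values were found for NFKB2 (0.62, edgeR adjusted p = 3.44e-06), NFKB1 (0.58, adjusted p = 4.16e-05), NFKBIA (0.38, adjusted p = 0.000120) and RELA (0.28, adjusted p = 0.00199). REL went the other way (-0.33, edgeR adjusted p = 0.00265). For TNF the fitted value was 3.77 (edgeR adjusted p = 0.00121), but TNF had 2 counts in Cl1 and passed the filter only through the Cl10 libraries, so this is no call. The RELA value was 0.06 once the median of its neighbouring genes was subtracted. Each clone is 1 clone, so the deletion and other differences between the clones cannot be told apart.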

How the results depend on the processing

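Of the members' values under the alternatives, 119 of 127 kept their direction and their side of the threshold in Cl1, 106 of 130 in Cl10 and 123 of 129 between the clones. The totals for Cl1 and between the clones include the fits of TNF, which are descriptions there and not calls. TNF got no adjusted p from DESeq2 in Cl1 and was not tested in comparisons with Cl1 when at least 10 counts in every library were asked for, nor in Cl1 without control replicate 1. Of 1170 values for 30 list genes, 1106 kept both, 33 lost and 20 gained a call, and 11 turned. The causes were not tested. With the median of neighbouring genes subtracted, values turned for NFKBIZ (0.16), CCL5 (0.090) and DRAM1 (0.073) in Cl1, for REL (0.13) and TAX1BP1 (0.28) in Cl10, and for TNIP2 (0.21), TAX1BP1 (0.084) and TLR6 (-0.058) between the clones, and the members lower in Cl10 went from 2 to 1. With library size only, NFKBIZ turned between the clones (0.041). Same-numbered libraries did not deviate together (correlation over 11656 genes -0.265, -0.260 and 0.00171), so a shared number was not taken as a pair. With 2 libraries a group, the negative values mean that control and clone libraries of unlike number deviated together to some degree. The labels name no such pairing, and its source was not tested. The replicate block gave 2415 higher and 2426 lower genes in Cl1 and 4224 and 4457 in Cl10, with 1 member higher in Cl1 (REL) and REL at 0.050 in Cl10, and beside REL in Cl1 and BIRC3 in Cl10 it changed no member's call. Crossed blocks, added after seeing the data, gave 3409 and 3485 in Cl1, with 1 member higher, and 4870 and 5057 in Cl10. In 1 fit over 6 libraries, 0 members were lower in Cl10 than in Cl1. With the block added there, 0 were lower, 3270 genes were higher and REL stood at 0.006 in Cl10. Leaving out each library gave 0 to 1 members higher, 1444 to 3565 genes higher and 1257 to 3581 lower in Cl1. In Cl10 it gave 0 to 6 members higher, 1 to 4 lower, 2376 to 5914 genes higher and 2765 to 5974 lower. Single genes ran in Cl1 from -0.13 to 0.92 (REL), -0.20 to 0.14 (NFKBIZ) and -0.15 to 0.12 (DRAM1), and in Cl10 from -0.47 to 0.58 (REL), -0.24 to 0.10 (NFKBIZ) and -0.035 to 0.17 (EFNA1). Between the clones they ran from -0.098 to 0.028 (NFKBIZ), -0.19 to 0.31 (TLR6) and -0.30 to 0.031 (IER3). A fit with 1 library left in a group assumes that it varies like the other group. Depth limits TNF, with 1 count in each Cl1 library.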
